A study of Mus musculus with 24 samples.

Results

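Collagens are the mouse genes whose symbols have the form Col, number, a, number. Of 44 such genes in RefSeq, 43 had a probe set naming them alone, out of 30701 genes measured in all. Col7a1, the anchoring fibril collagen, was left out because its probe set also names Mir711. By structure the 43 genes divide into 11 fibrillar, 6 basement membrane (type IV), 2 basement membrane zone, 9 FACIT (fibril-associated collagens with interrupted triple helices), 6 beaded filament (type VI), 3 short chain network, 4 transmembrane and 2 unclassified collagens.

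Collagens are triple helices of 3 chains that give tissue its tensile strength. In the intestine, fibrillar collagens and the FACIT and type VI collagens bound to them fill the connective tissue under the epithelium and are made mainly by fibroblasts and smooth muscle. Type IV collagen forms the sheet-like basement membrane on which the epithelium rests. Col17a1 is known from the hemidesmosome, a junction that holds epithelial cells to such a sheet. Whether it has that place in intestinal epithelium was not examined here.

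RNA was measured on 24 single-colour Affymetrix arrays in 6 groups of 4. Fetal organoids came from mouse intestine at E19 and adult organoids from adult intestine, each after 30 and 3 days in ENR, an organoid growth medium named for EGF, Noggin and R-spondin. The other groups were whole intestine of adults and of newborns at P0, with no culture. The labels give no strain, sex or exact adult age, and are silent on pooling and on whether the 4 replicates of a group came from separate animals or cultures. The p-values therefore measure only the spread between these arrays. The number of arrays limits the precision. Levels are log2 signals, differences are log2 differences of group means ± SE, and a gene was called at a limma adjusted p under 0.05 (Benjamini-Hochberg over all 30701 genes).

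Most collagens gave dim signals. Negative control probe sets had a median of 3.84 to 4.61 across the 24 arrays and a 95th percentile of 7.27 to 8.06. Group means of 41 of the 43 collagens exceeded the negative control median in every group but P0 tissue, where 40 did. Col8a1 and Col10a1 lay below it everywhere, so no direction is read for them. Only Col1a1, Col1a2 and Col3a1 reached the 95th percentile in any group, all in P0 tissue and Col1a1 also in fetal organoids at day 3.

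A subset of 14 collagens varied strongly and the rest little. The 6 group means of a gene spanned at least 1 log2 unit for 14 of 43 collagens, against 19.1% of all genes, and all 14 were highest in P0 tissue. They were 4 fibrillar collagens (Col1a1, Col1a2, Col3a1 and Col5a2), both of Col4a1 and Col4a2, Col15a1, the FACIT collagens Col12a1 and Col14a1, and 5 type VI collagens (Col6a1 to Col6a5). The span was largest for Col14a1 (2.89) and Col12a1 (2.55). For 25 members it was under 0.5, and the median span was 0.35 over the collagens and 0.44 over all genes. Adult organoids at day 30 had the lowest mean for 26 members.

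Single arrays stood apart across many collagens. Adult tissue replicate 4 had the highest value of its group for 41 of 43 members, with a median of 0.36 above the other 3 arrays, against 0.08 over all genes. P0 replicate 4 was highest for 27 members and fetal day 3 replicate 1 for 26. The mean background probe level of fetal day 3 replicate 1 was 4.04, against 3.43 to 3.63 on the other arrays of that group. Of 114 called differences, 15 lost their call without fetal day 3 replicate 1, 4 without adult tissue replicate 4 and 1 without P0 replicate 4.

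**Figure D1:**
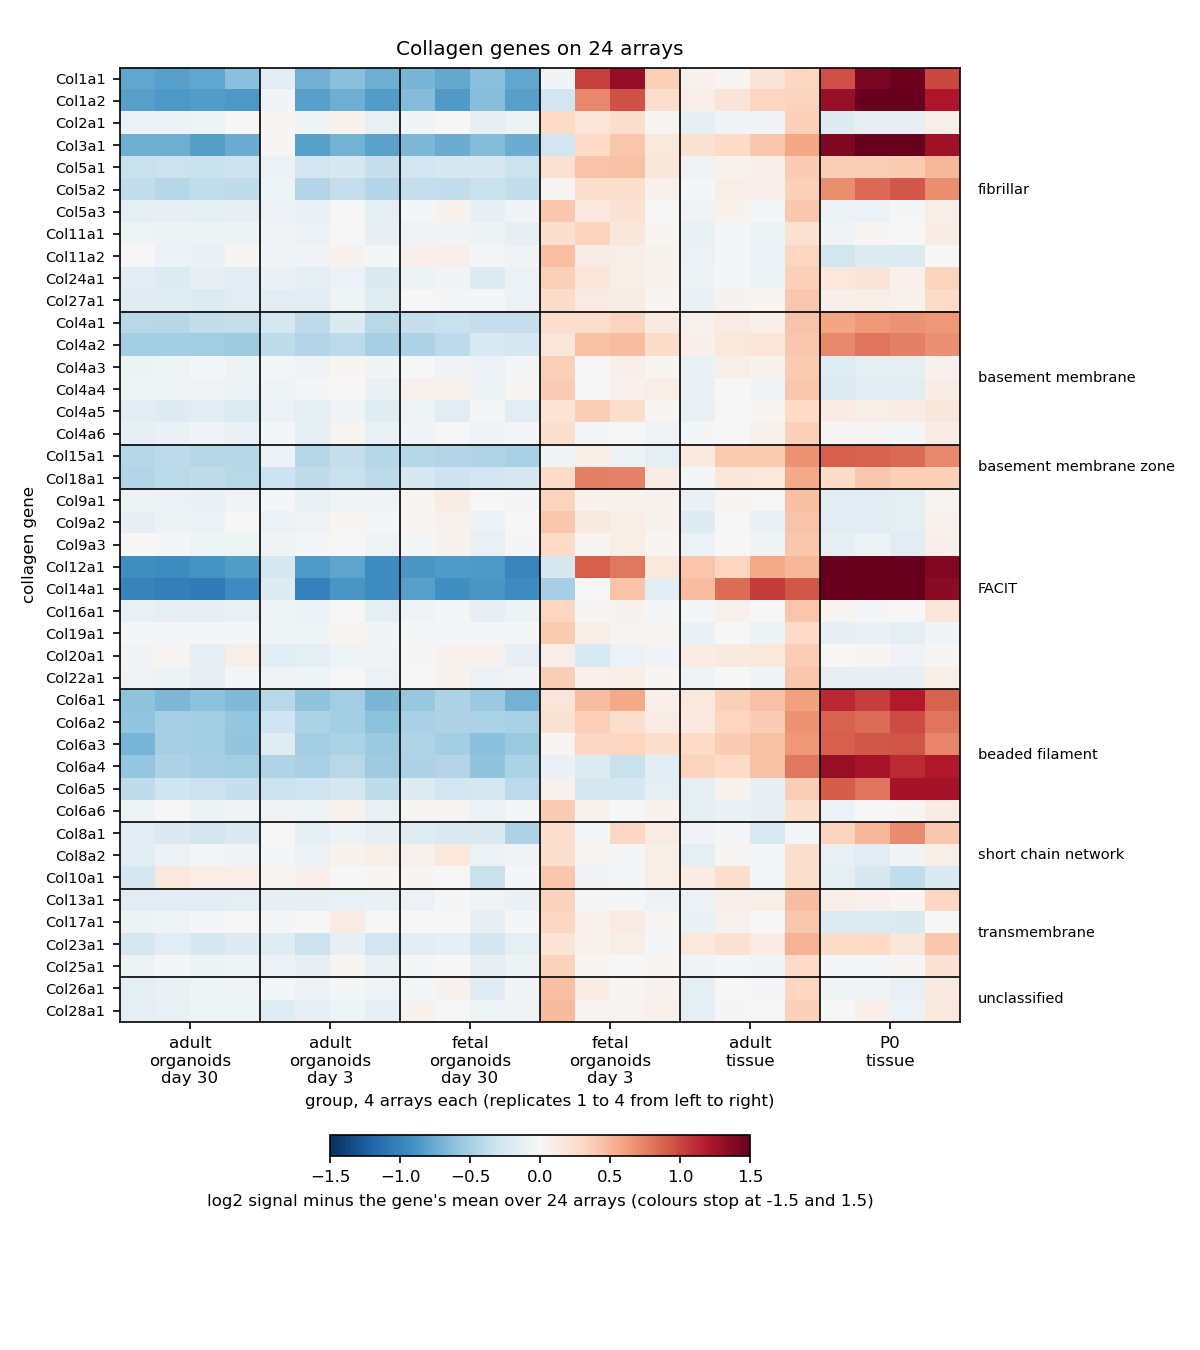
Log2 signal of each of the 43 collagen genes (y axis, by class) on each of 24 arrays (x axis, 4 per group), minus the gene's mean over all arrays, with red higher and blue lower. The 14 genes whose group means spanned at least 1 are red in P0 tissue. Some genes with a smaller span, such as Col5a1 and Col8a1, are red there too. The 25 genes with a span under 0.5 form the paler lines.

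Promoter sequence is shown for a chain of type I collagen and for type III collagen. Both fibrillar genes had their highest group mean in P0 tissue and their lowest in adult organoids at day 30. The stretch is the 250 bases before the start of transcription, from RefSeq on GRCm38.p6, and capitals mark matches, on either strand, to the CCAAT box, the TATA box letters TATAAA or the GC box letters GGGCGG. No match overlapped another. Both genes lie on the + strand.
Col1a2 (chr6:4505368-4505617): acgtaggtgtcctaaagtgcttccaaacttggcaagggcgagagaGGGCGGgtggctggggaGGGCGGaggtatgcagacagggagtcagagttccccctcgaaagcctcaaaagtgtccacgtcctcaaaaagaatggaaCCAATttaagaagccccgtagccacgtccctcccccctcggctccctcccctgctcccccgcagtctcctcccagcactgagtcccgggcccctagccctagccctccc
Col3a1 (chr1:45311288-45311537): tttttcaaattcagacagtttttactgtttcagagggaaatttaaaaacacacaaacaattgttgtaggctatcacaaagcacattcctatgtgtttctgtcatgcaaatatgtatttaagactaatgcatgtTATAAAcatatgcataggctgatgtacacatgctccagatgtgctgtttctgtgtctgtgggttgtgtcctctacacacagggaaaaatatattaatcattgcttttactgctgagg
The Col1a2 window held 1 CCAAT, 109 bases before the start, and 2 GGGCGG, with a GC content of 62%. The Col3a1 window held 1 TATAAA, 117 bases before the start, with a GC content of 35.2%. Windows of 34 of the 43 collagens were available, 37 in all, and CCAAT was found in 12 of them, TATAAA in 5 and GGGCGG in 21. Of all 32851 mouse windows of this length, 33.8% held CCAAT, 12.4% TATAAA and 32.7% GGGCGG. A match describes the letters and is not a shown binding site.

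Adult intestine was set against P0 intestine to see how collagen RNA differs between maturity and birth. Of the 43 collagens, 16 were called lower in adult tissue and 2 higher, while 12.2% of all genes were called lower and 15% higher. The 2 higher calls were Col17a1 and Col10a1, and Col10a1 lay below the negative control median in both groups. Arrays of the groups did not overlap for 17 collagens and for 30.5% of all genes. By class, 5 of 11 fibrillar, 2 of 6 type IV, 5 of 6 type VI, 2 of 9 FACIT and 1 of 2 basement membrane zone collagens were lower, and 15 of the 16 lower genes had a mean above the negative control median in at least 1 group.

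Col1a1, a chain of type I collagen, the main fibril of connective tissue, had 7.37, 7.34, 7.50 and 7.62 on the adult tissue arrays and 8.27, 8.72, 8.78 and 8.31 on the P0 arrays. All adult arrays lay below all P0 arrays, a difference of -1.06 ± 0.20 (limma adjusted p = 0.00023). Its partner chain Col1a2 had 6.51, 6.61, 6.74 and 6.76 in adult tissue and 7.73, 8.12, 8.37 and 7.64 in P0 tissue. This was the largest fall of any collagen, -1.31 ± 0.20 (limma adjusted p = 2.9e-05). Col3a1, type III collagen of distensible organs, had 6.76, 6.83, 6.95 and 7.12 in adult tissue and 7.94, 8.09, 8.38 and 7.81 in P0 tissue, again without overlap (-1.14 ± 0.16). Of the type V chains, which help set fibril thickness, Col5a1 (-0.30 ± 0.08) and Col5a2 (-0.67 ± 0.09) were lower, with overlapping arrays for Col5a1, and Col5a3 was not called (0.12 ± 0.09). Col27a1, a fibrillar collagen known from cartilage, had 6.12, 6.27, 6.25 and 6.63 in adult tissue and 6.30, 6.31, 6.29 and 6.51 in P0 tissue. These ranges overlapped and it was not called (-0.04 ± 0.08).

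Of the 9 FACIT collagens, 2 were lower, against 12.2% of all genes. The median difference of the class was 0.14, against 0.082 over all genes. Col12a1, a FACIT collagen on the surface of type I fibrils, had 5.57, 5.48, 5.72 and 5.65 in adult tissue and 6.78, 6.80, 7.11 and 6.54 in P0 tissue (-1.20 ± 0.18, limma adjusted p = 1.8e-05). Col14a1, a FACIT collagen of the same kind, had 5.92, 6.30, 6.51 and 6.39 in adult tissue and 7.30, 7.46, 7.81 and 6.81 in P0 tissue (-1.07 ± 0.19). Neither gene had an adult array as high as the lowest P0 array. Among the chains of type VI collagen, whose beaded filaments link cells to the matrix, Col6a5 had 5.0, 5.19, 5.01 and 5.50 in adult tissue and 6.04, 5.94, 6.38 and 6.39 in P0 tissue (-1.01 ± 0.11). Col6a4 had 6.05, 6.01, 6.15 and 6.50 in adult tissue and 7.02, 6.95, 6.83 and 6.91 in P0 tissue (-0.75 ± 0.08). The groups were separate for both genes, and replicate 4 was the highest adult array in each. The core chain Col6a1 had 6.62, 6.81, 6.90 and 7.07 in adult tissue and 7.59, 7.49, 7.65 and 7.34 in P0 tissue (-0.67 ± 0.10). Its partners Col6a2 (6.50, 6.68, 6.74 and 7.03 in adult tissue, 7.24, 7.20, 7.34 and 7.16 in P0 tissue) and Col6a3 (5.92, 6.0, 6.06 and 6.27 in adult tissue, 6.52, 6.55, 6.57 and 6.35 in P0 tissue) fell by 0.49 and 0.43, without overlap.

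Of the basement membrane collagens, only the widely used pair Col4a1 and Col4a2 was called. Col4a1 had 6.16, 6.22, 6.18 and 6.53 in adult tissue and 6.69, 6.75, 6.78 and 6.75 in P0 tissue (-0.47 ± 0.07, limma adjusted p = 2.9e-05). Col4a2 had 6.33, 6.41, 6.43 and 6.66 in adult tissue and 6.97, 7.06, 7.01 and 6.94 in P0 tissue (-0.54 ± 0.08). Every adult array lay below every P0 array for both. Col15a1, a collagen near the basement membranes of muscle and vessels, had 5.98, 6.22, 6.23 and 6.51 in adult tissue and 6.73, 6.72, 6.68 and 6.55 in P0 tissue (-0.43 ± 0.09). Col18a1, a basement membrane collagen whose end fragment is endostatin, had 6.19, 6.40, 6.37 and 6.78 in adult tissue and 6.49, 6.62, 6.57 and 6.57 in P0 tissue. The Col18a1 groups overlapped and it was not called (-0.13 ± 0.12). The hemidesmosome collagen Col17a1 had 5.30, 5.46, 5.40 and 5.80 in adult tissue and 5.19, 5.20, 5.18 and 5.39 in P0 tissue. It was called higher by 0.25 ± 0.09 with overlapping arrays, and the call ended without adult tissue replicate 4 (0.15, limma adjusted p = 0.17), without adult replicate 2 or P0 replicate 1, 2 or 3 (0.23 to 0.26, limma adjusted p from 0.052 to 0.089), or when the compared groups alone were fitted (0.25, adjusted p = 0.11).

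Markers of smooth muscle, endothelium and fibroblasts were lower in the same arrays, but those of leukocytes were mostly higher. All 6 smooth muscle and all 6 endothelium markers and 4 of 7 fibroblast markers were called lower in adult tissue, and 6 of 7 epithelium markers were called higher. Of 5 leukocyte markers, 4 were called higher and 1 lower. Ptprc, Cd3e and Cd79a had P0 means below the negative control median, so their differences are only bounds. Of all genes, 15% were called higher and 12.2% lower. The summed signal of the fibroblast markers ran between 859 and 1287 on the adult arrays and between 2034 and 3201 on the P0 arrays. The part of cell composition in the collagen differences was not tested, and in bulk samples fewer cells of a type and less RNA per cell cannot be told apart.

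**Figure D2:**
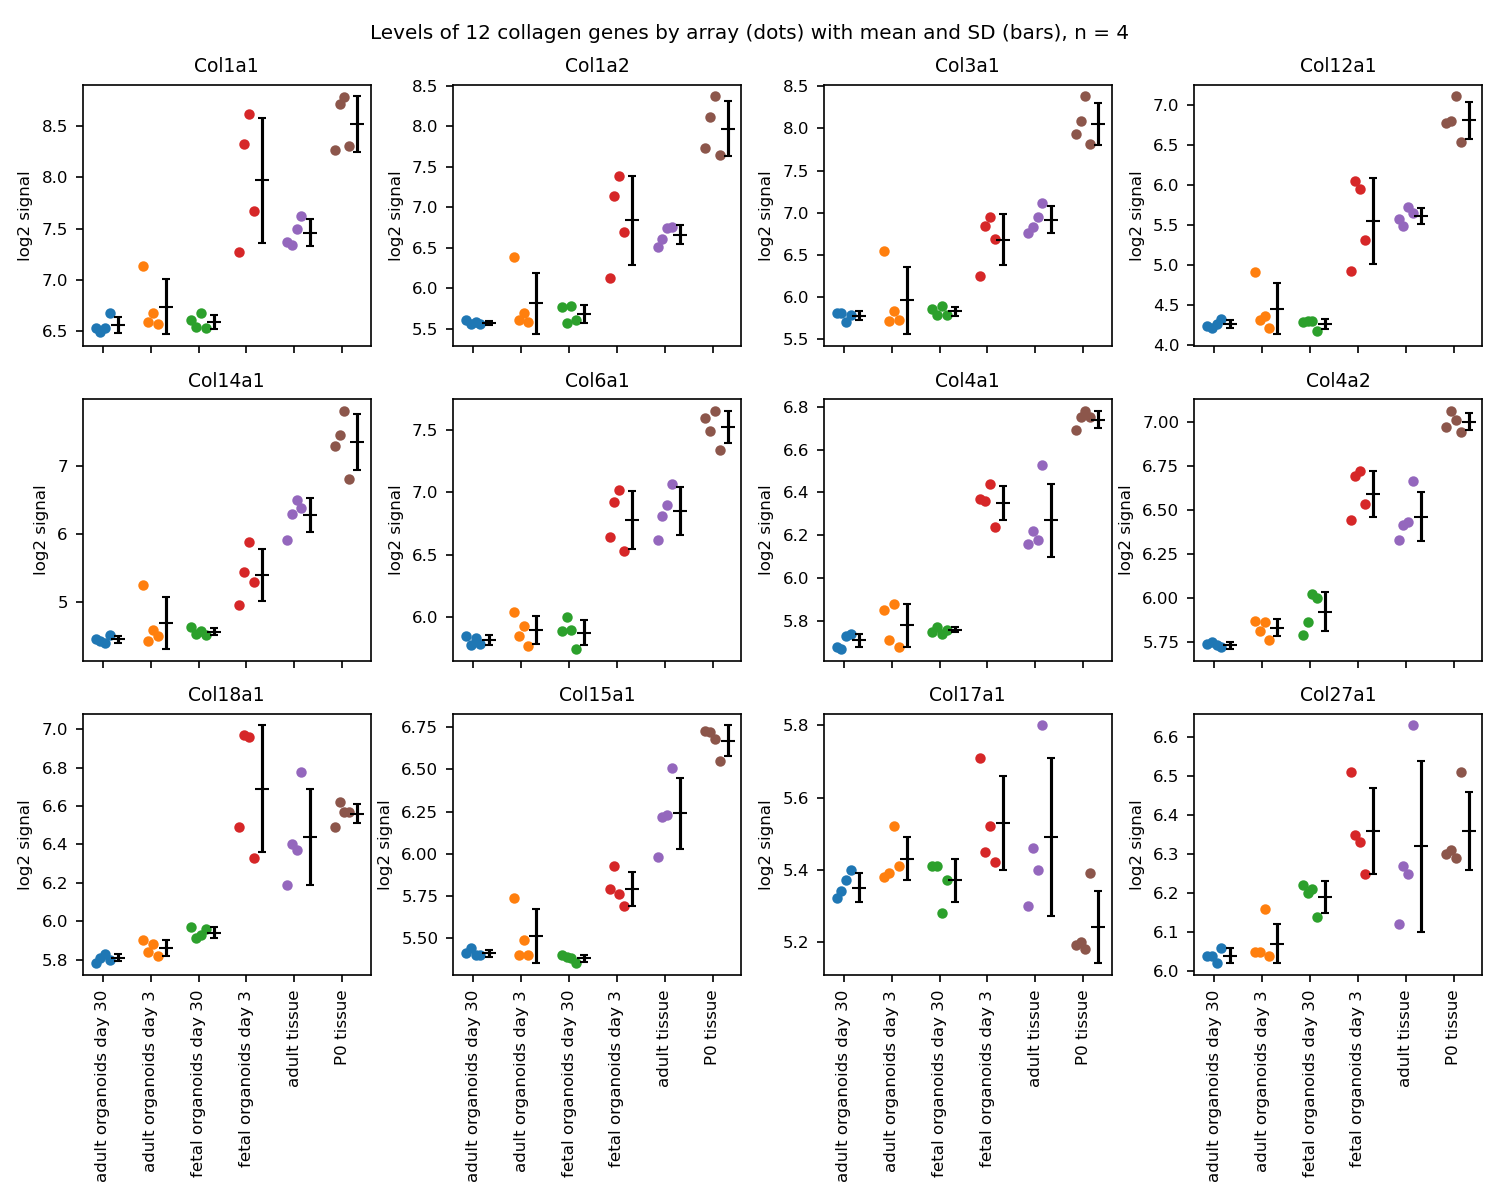
Log2 signal (y axis) of 12 collagen genes on each array (dots, 4 per group on the x axis) with the group mean and SD (bars). P0 arrays stand highest for Col1a2, Col3a1, Col12a1, Col14a1, Col6a1, Col4a1, Col4a2 and Col15a1, and the day 30 organoid arrays lie together at the low end of these genes, whereas the groups of Col17a1 and Col27a1 overlap widely.

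Fetal organoids at day 30 were compared with those at day 3 to follow collagens over culture. Of the 43 collagens, 20 were called lower at day 30 and 0 higher, against 8.76% and 6.77% of all genes, and the arrays did not overlap for 26 collagens, against 15.2% of all genes. At an unadjusted p under 0.05 the counts were 23 lower and 0 higher, against 8503 of all 30701 genes in either direction. Only Col20a1, a FACIT collagen, had a difference above 0 (0.06 ± 0.08), and it was not called. The calls covered 7 of 11 fibrillar, 3 of 6 type IV, 4 of 6 type VI, 2 of 9 FACIT and both basement membrane zone collagens. Col8a1 was among the 20 with both means below the negative control median.

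Col1a1 had 6.61, 6.54, 6.68 and 6.53 at day 30 and 7.27, 8.33, 8.62 and 7.67 at day 3 in fetal organoids. The day 30 arrays lay within a narrow band, while day 3 arrays 2 and 3 stood above arrays 1 and 4, and the difference was -1.38 ± 0.20 (limma adjusted p = 3.3e-05). That SE pools the variance of all 6 groups, whereas the SD here was 0.61 at day 3 and 0.07 at day 30. Col1a2 showed the same spread, with 5.77, 5.57, 5.78 and 5.61 at day 30 and 6.13, 7.14, 7.38 and 6.69 at day 3 (-1.15 ± 0.20). Col3a1 had 5.86, 5.79, 5.89 and 5.79 at day 30 and 6.25, 6.84, 6.95 and 6.69 at day 3 (-0.85 ± 0.16). No day 30 array reached a day 3 array in these fibrillar genes. Col27a1 had 6.22, 6.20, 6.21 and 6.14 at day 30 and 6.51, 6.35, 6.33 and 6.25 at day 3. Its arrays did not overlap, yet its difference was not called (-0.17 ± 0.08, limma adjusted p = 0.19).

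Col12a1 had 4.28, 4.30, 4.29 and 4.17 at day 30 and 4.92, 6.05, 5.95 and 5.31 at day 3 (-1.29 ± 0.18, limma adjusted p = 2.7e-05). Only 2 of its 4 day 30 arrays lay above the negative control median, so the fall ended near that floor. Col14a1 had 4.64, 4.54, 4.58 and 4.52 at day 30 and 4.96, 5.45, 5.88 and 5.30 at day 3 (-0.83 ± 0.19). Without fetal day 3 arrays 2 and 3 together, Col14a1 was no longer called (-0.56, limma adjusted p = 0.11). Of the type VI chains, Col6a1 had 5.89, 6.0, 5.90 and 5.75 at day 30 and 6.64, 6.92, 7.02 and 6.53 at day 3 (-0.90 ± 0.10). Col6a2 had 5.87, 5.89, 5.88 and 5.87 at day 30 and 6.58, 6.71, 6.62 and 6.48 at day 3 (-0.72 ± 0.09). Col6a3 had 5.17, 5.11, 5.0 and 5.06 at day 30 and 5.65, 5.93, 5.94 and 5.88 at day 3 (-0.76 ± 0.09). All 3 were separated between the days by wider gaps than the spread within a day. Col6a4 had 5.25, 5.27, 5.11 and 5.24 at day 30 and 5.61, 5.51, 5.38 and 5.55 at day 3, a smaller difference (-0.30 ± 0.08). Its call ended without fetal day 3 replicate 1 (-0.26, limma adjusted p = 0.053) or day 30 replicate 3 (-0.26, adjusted p = 0.064), after a second quantile normalization (-0.22, adjusted p = 0.079) and when both groups alone were fitted (adjusted p = 0.069). Col6a5 had 4.94, 4.85, 4.88 and 4.74 at day 30 and 5.20, 4.88, 4.87 and 4.99 at day 3, with overlap and no call (-0.13 ± 0.11).

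Col4a1 had 5.75, 5.77, 5.74 and 5.76 at day 30 and 6.37, 6.36, 6.44 and 6.24 at day 3 (-0.60 ± 0.07, limma adjusted p = 5.4e-06). Col4a2 had 5.79, 5.86, 6.02 and 6.0 at day 30 and 6.44, 6.69, 6.72 and 6.53 at day 3 (-0.67 ± 0.08). Col4a1 varied little within each day, so the gap between days far exceeded it. Col18a1 had 5.97, 5.91, 5.93 and 5.96 at day 30 and 6.49, 6.97, 6.96 and 6.33 at day 3 (-0.74 ± 0.12). Col15a1 had 5.40, 5.39, 5.38 and 5.35 at day 30 and 5.79, 5.93, 5.76 and 5.69 at day 3 (-0.41 ± 0.09). For both basement membrane zone genes the days were apart on every array. Col17a1 had 5.41, 5.41, 5.28 and 5.37 at day 30 and 5.71, 5.45, 5.52 and 5.42 at day 3, which was not called (-0.16 ± 0.09, limma adjusted p = 0.25).

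Adult organoids showed no called collagen over the same days. limma called 0 of 43 higher and 0 lower at day 30, where 0.0261% of all genes were called higher and 0.0228% lower. At an unadjusted p under 0.05 the count was also 0 of 43, against 2582 of all genes. Arrays did not overlap for 3 collagens, Col4a2, Col8a1 and Col13a1, and for 5.34% of all genes. Differences ran between -0.24 and 0.10.

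Col1a1 had 6.53, 6.49, 6.53 and 6.68 at day 30 and 7.14, 6.59, 6.68 and 6.57 at day 3 in adult organoids (-0.18 ± 0.20). Col1a2 had 5.61, 5.56, 5.58 and 5.56 at day 30 and 6.38, 5.61, 5.69 and 5.58 at day 3 (-0.24 ± 0.20). Col3a1 had 5.81, 5.81, 5.71 and 5.79 at day 30 and 6.55, 5.72, 5.83 and 5.73 at day 3 (-0.18 ± 0.16). In all 3 fibrillar genes day 3 replicate 1 stood alone above the other arrays. Col12a1 had 4.23, 4.21, 4.26 and 4.32 at day 30 and 4.91, 4.31, 4.36 and 4.21 at day 3, with the same array high. These levels were near the negative control median, which 3 of the 4 day 30 arrays exceeded. Col14a1 had 4.46, 4.43, 4.41 and 4.52 at day 30 and 5.26, 4.44, 4.59 and 4.51 at day 3. Without that array the differences of Col14a1 and Col1a2 were -0.06 and -0.05, and that of Col3a1 was 0.02.

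Type VI collagens of adult organoids moved little. Col6a1 had 5.85, 5.78, 5.84 and 5.79 at day 30 and 6.04, 5.85, 5.93 and 5.77 at day 3. Col6a2 had 5.77, 5.86, 5.84 and 5.78 at day 30 and 6.06, 5.88, 5.85 and 5.74 at day 3. Col6a3 had 4.93, 5.12, 5.11 and 5.03 at day 30 and 5.44, 5.10, 5.15 and 5.07 at day 3. Replicate 1 was the highest day 3 array of all 3, and the days overlapped. Col6a4 had 5.13, 5.25, 5.21 and 5.19 at day 30 and 5.26, 5.22, 5.29 and 5.18 at day 3, and Col6a5 had 4.75, 4.84, 4.82 and 4.79 at day 30 and 4.81, 4.84, 4.88 and 4.75 at day 3.

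Among basement membrane collagens of adult organoids, Col4a1 had 5.68, 5.67, 5.73 and 5.74 at day 30 and 5.85, 5.71, 5.88 and 5.68 at day 3. Col4a2 had 5.74, 5.75, 5.73 and 5.72 at day 30 and 5.87, 5.81, 5.86 and 5.76 at day 3, a gap between the days that limma did not call (-0.09 ± 0.08). Col18a1 had 5.78, 5.81, 5.83 and 5.80 at day 30 and 5.90, 5.84, 5.88 and 5.82 at day 3. The highest day 30 array of Col18a1 lay just above the lowest day 3 array. Col15a1 had 5.41, 5.44, 5.40 and 5.40 at day 30 and 5.74, 5.40, 5.49 and 5.40 at day 3. Col17a1 had 5.32, 5.34, 5.37 and 5.40 at day 30 and 5.38, 5.39, 5.52 and 5.41 at day 3, and Col27a1 had 6.04, 6.04, 6.02 and 6.06 at day 30 and 6.05, 6.05, 6.16 and 6.04 at day 3. Both overlapped between the days.

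The fetal change over culture was larger than the adult change for 9 collagens. The difference of the changes, tested as an interaction, was called lower for 9 of 43 collagens and higher for 0, against 1.97% and 1.02% of all genes. It was -1.20 ± 0.28 for Col1a1 (limma adjusted p = 0.016), -1.10 ± 0.26 for Col12a1 (adjusted p = 0.016) and -0.82 ± 0.15 for Col6a1 (adjusted p = 0.002). The other 6 were Col18a1 (-0.69), Col6a2 (-0.65), Col6a3 (-0.62), Col4a2 (-0.58), Col4a1 (-0.52) and Col5a1 (-0.51). Without fetal day 3 arrays 2 and 3, 4 of the 9 were called: Col4a1 (-0.48), Col4a2 (-0.47), Col6a1 (-0.62) and Col6a2 (-0.59). Col1a1 was then -0.70 (limma adjusted p = 0.095) and Col12a1 -0.66 (adjusted p = 0.12). With the 4 compared groups alone, Col1a1 (limma adjusted p = 0.053) and Col12a1 (adjusted p = 0.056) were not called, and Col18a1 lost its call without fetal day 3 replicate 2 or 3 (-0.60 in each). Leaving out adult day 3 replicate 1 instead raised the count to 12, and Col1a2 (-1.11, limma adjusted p = 0.024), Col3a1 (-0.87, adjusted p = 0.0081) and Col5a2 (-0.52, adjusted p = 0.012) then passed the test.

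Several fibroblast markers, but not all, were high on the same arrays. Dcn, a fibroblast proteoglycan that coats collagen fibrils, had 6.01, 7.42, 7.18 and 6.19 in fetal organoids at day 3, so arrays 2 and 3 were high. In adult organoids at day 3 Dcn had 8.88, 4.15, 4.08 and 4.73, with replicate 1 far above the others. At day 30 it lay between 3.73 and 4.87 in fetal and between 3.76 and 3.99 in adult organoids. Lum, Vim and Fn1 were also highest on fetal day 3 arrays 2 and 3. Thy1 was not (5.20, 5.07, 5.31 and 5.13), and the mean of Ogn lay below the negative control median there. In adult organoids at day 3, Lum, Ogn and Vim were highest on replicate 1. Fn1 was high on replicates 1 and 2 (7.22 and 7.06), while Pdgfrb (5.45, 5.22, 5.30 and 5.41) and Thy1 (5.06, 5.02, 5.13 and 4.93) varied little. The summed signal of the 7 fibroblast markers was 537 to 1261 in fetal organoids at day 3, against 206 to 298 at day 30, and 218 to 903 in adult organoids at day 3, against 197 to 251 at day 30. In fetal organoids 6 of 7 fibroblast, 4 of 6 smooth muscle and 5 of 6 endothelium markers were called lower at day 30. Dcn, Lum, Kdr and Tek had day 30 means below the negative control median, so their falls are only bounds. Ogn and Emcn lay below it on both days, so no direction is read for them. None of the 7 epithelium markers was called, and 8.76% of all genes were called lower. The part of these cell types in the collagen changes was not tested.

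**Figure D3:**
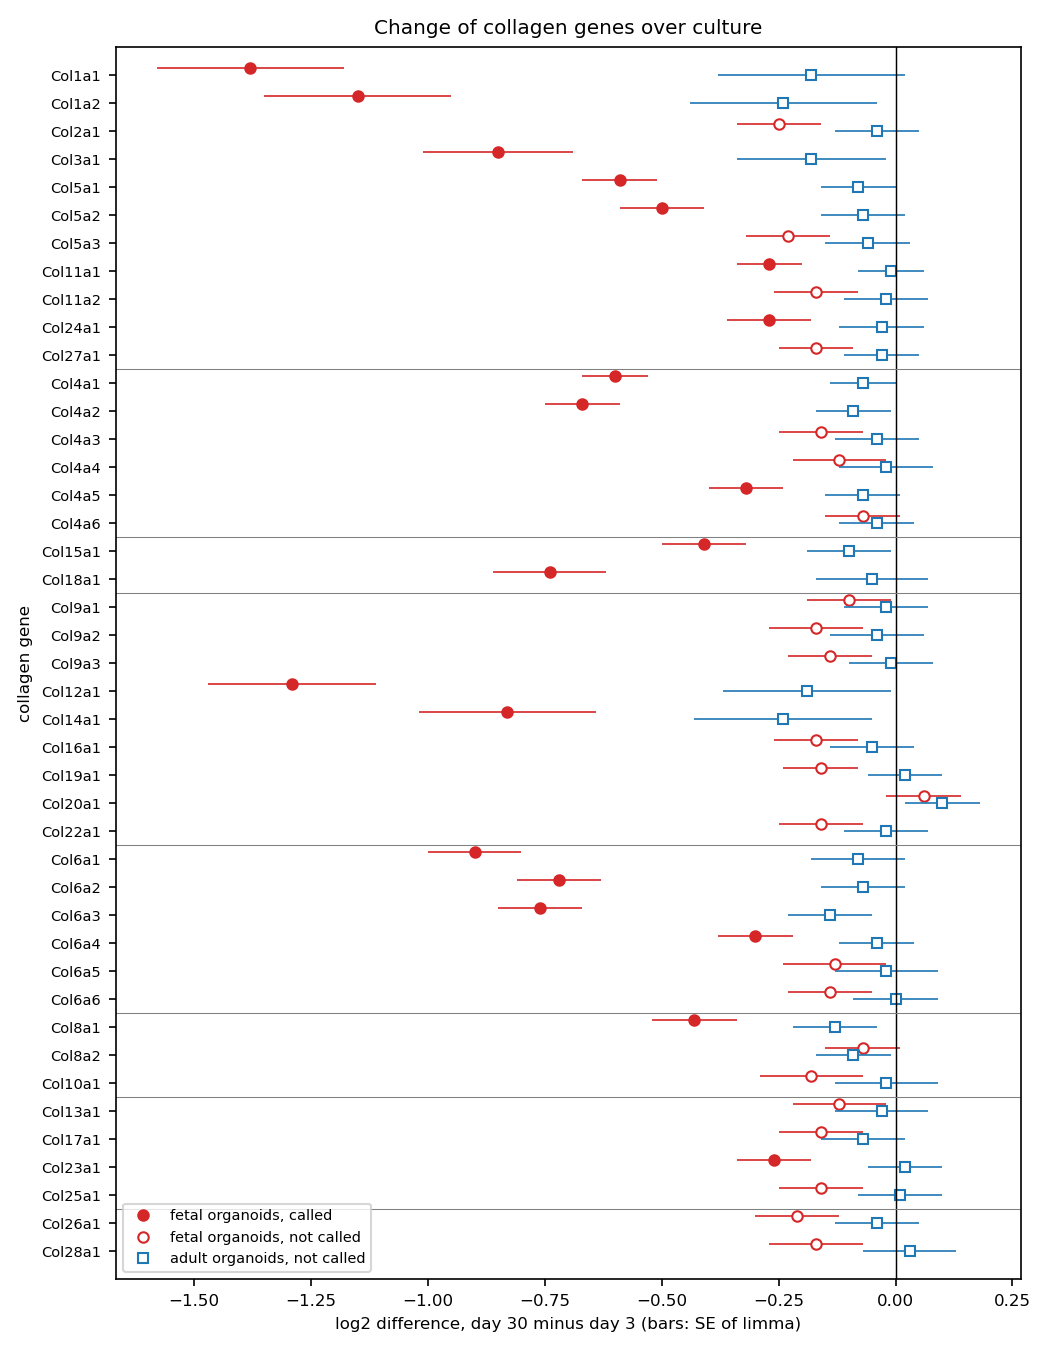
Log2 difference of day 30 minus day 3 (x axis, bars are the SE of limma) for the 43 collagen genes (y axis, by class) in fetal organoids (red circles) and adult organoids (blue squares), filled where called. The red points reach -1.38 for Col1a1, while all blue points lie between -0.24 and 0.10 and are open.

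Adult and fetal organoids were then compared at each day. At day 3, 23 of 43 collagens were called lower in adult organoids and 0 higher, against 10.1% and 14.5% of all genes, and arrays did not overlap for 26 collagens, against 24.1% of all genes. At an unadjusted p under 0.05 the count was 29 lower and again 0 higher, against 10587 of all 30701 genes in either direction. Col8a1 was among the 23 with both means below the negative control median. The 9 fibrillar collagens among the calls were led by Col1a1 (-1.23 ± 0.20, limma adjusted p = 7.6e-05). Col1a2 (-1.02 ± 0.20) and Col3a1 (-0.73 ± 0.16) overlapped, since adult replicate 1 reached the fetal arrays, as it did for Col14a1. Among fibril-attached collagens Col12a1 differed by -1.11 ± 0.18, Col6a1 by -0.88 ± 0.10, Col6a2 by -0.72 ± 0.09, Col14a1 by -0.70 ± 0.19 and Col6a3 by -0.66 ± 0.09. In the basement membrane Col18a1 differed by -0.83 ± 0.12, Col4a2 by -0.77 ± 0.08 and Col4a1 by -0.57 ± 0.07, without overlap. Without fetal day 3 arrays 2 and 3 the count fell to 15, and Col3a1 was then -0.52 (limma adjusted p = 0.06) and Col14a1 -0.43 (adjusted p = 0.19). Col14a1 also lost its call without fetal day 3 replicate 3 (-0.54, limma adjusted p = 0.052).

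At day 30 limma called 0 of 43 collagens in either direction, against 6.8% of all genes called higher in adult organoids and 2.17% called lower. At an unadjusted p under 0.05 the count was 1 lower and 0 higher, against 6186 of all 30701 genes in either direction. Differences ran between -0.19 and 0.10, with Col4a2 lowest (-0.19 ± 0.08, limma adjusted p = 0.15). Arrays did not overlap for 11 collagens, against 12.3% of all genes. A p that misses the threshold does not show that the ages were alike. These comparisons share arrays with the culture comparisons and are not independent of them.

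Day 3 organoids were set against whole intestine of the nearest age. In fetal organoids 16 of 43 collagens were called lower than in P0 tissue and 8 higher, against 13.8% and 30.5% of all genes, and arrays did not overlap for 19, against 39.5%. Col14a1 (-1.95 ± 0.19), Col6a4 (-1.41 ± 0.08), Col3a1 (-1.37 ± 0.16), Col12a1 (-1.25 ± 0.18), Col6a5 (-1.20 ± 0.11) and Col1a2 (-1.13 ± 0.20) showed the largest falls. Col6a4, with an adjusted p of 1.5e-11 from limma, had fetal arrays that ended at 5.61, against P0 arrays that began at 6.83. Smaller falls were those of Col15a1 (-0.88 ± 0.09), Col6a1 (-0.74 ± 0.10), Col6a3 (-0.65 ± 0.09), Col6a2 (-0.63 ± 0.09), Col4a2 (-0.40 ± 0.08) and Col4a1 (-0.39 ± 0.07). Col1a1 overlapped (-0.55 ± 0.20, limma adjusted p = 0.029) and its call ended without fetal replicate 1 (-0.31, adjusted p = 0.16) or 4, without P0 replicate 2 or 3 (-0.45 to -0.48 for these 3, adjusted p from 0.081 to 0.092), or when the 2 groups alone were fitted (adjusted p = 0.12). Col18a1 was not called (0.13 ± 0.12). Col8a1 was also among the 16 lower calls, with both means below the negative control median.

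The 8 higher calls were small. They were Col11a2 (0.35), Col2a1 (0.29), Col17a1 (0.29), Col9a2 (0.28), Col19a1 (0.25), Col9a1 (0.23) and Col5a3 (0.22), plus Col10a1 below the negative control median. Most of these are known from cartilage, and Col17a1 from epithelium. The median of all genes was itself 0.14 higher in these organoids than in P0 tissue. Without fetal day 3 replicate 1 the count was 3, for Col2a1, Col11a2 and Col17a1, and Col19a1 had a P0 mean below the negative control median, so its value is only a bound.

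In adult organoids at day 3, 20 of 43 collagens were called lower than in adult tissue and 0 higher, against 13.5% and 21.9% of all genes, and arrays did not overlap for 20, against 35.1%. Col14a1 (-1.58 ± 0.19, limma adjusted p = 5.9e-07) and Col12a1 (-1.16 ± 0.18) fell most. Type VI chains followed with Col6a1 (-0.96 ± 0.10), Col6a4 (-0.94 ± 0.08), Col6a3 (-0.88 ± 0.09), Col6a2 (-0.86 ± 0.09) and Col6a5 (-0.35 ± 0.11). Of fibrillar collagens, Col3a1 (-0.96 ± 0.16), Col1a2 (-0.84 ± 0.20) and Col1a1 (-0.71 ± 0.20) were lower, without overlap. Col15a1 (-0.73 ± 0.09), Col4a2 (-0.63 ± 0.08), Col18a1 (-0.58 ± 0.12) and Col4a1 (-0.49 ± 0.07) were lower in the basement membrane group, and Col17a1 was not called (-0.07 ± 0.09). Without adult tissue replicate 4 the count was 17. The calls that ended were those of Col6a5 (-0.25, limma adjusted p = 0.066), Col27a1 (-0.24 with all arrays, -0.14 without, adjusted p = 0.13) and the transmembrane collagen Col13a1 (-0.25 with all arrays, -0.15 without, adjusted p = 0.21). All 6 smooth muscle and all 6 endothelium markers were called lower in both kinds of day 3 organoid than in tissue. Fibroblast markers were lower for 6 of 7 in adult and 5 of 7 in fetal organoids. Where an organoid mean lay below the negative control median, as for Ogn and Emcn in both kinds, the fall is only a bound. Of all genes, 13.5% were called lower in adult and 13.8% in fetal organoids.

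**Figure D4:**
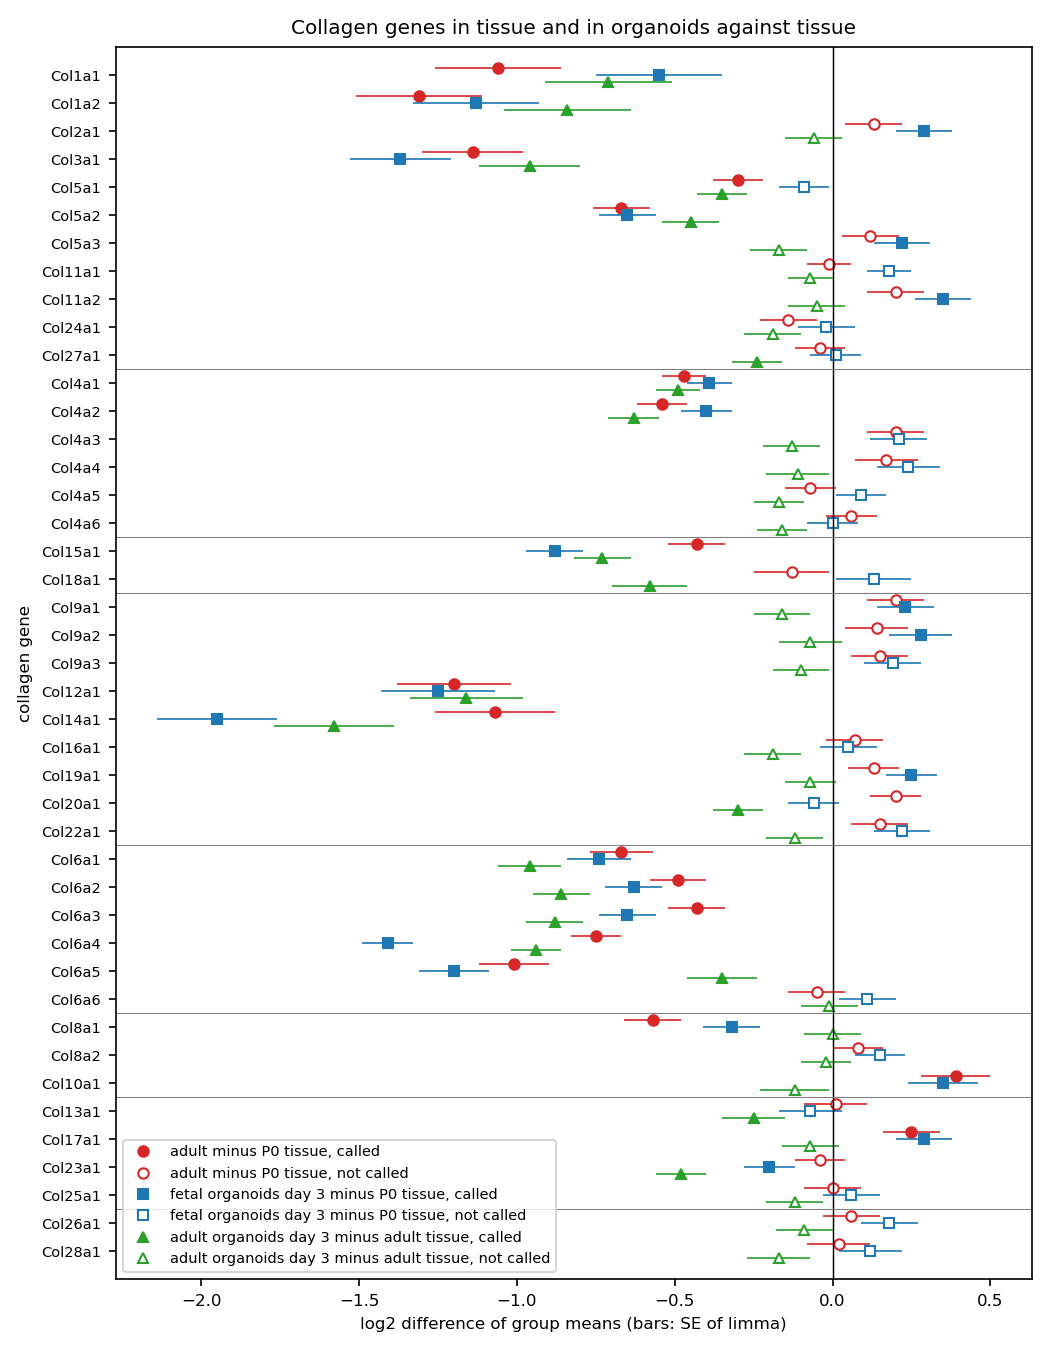
Log2 difference (x axis, bars are the SE of limma) of the 43 collagen genes (y axis, by class) for adult minus P0 tissue (red circles), fetal organoids at day 3 minus P0 tissue (blue squares) and adult organoids at day 3 minus adult tissue (green triangles), filled where called. Col14a1 reaches -1.95 in fetal organoids and no green point lies above 0; Col8a1 and Col10a1 are below the negative control median in all groups.

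Collagens that lie next to each other in the genome, with 0 protein-coding genes between them, were set side by side. Col4a1 and Col4a2 were called or not called together in all 8 comparisons, and so were Col3a1 with Col5a2 and Col6a1 with Col6a2. No collagen was called over adult culture or between the ages at day 30, so agreement there was fixed. The Col4a1 and Col4a2 pair also matched the Col6a1 and Col6a2 pair, on another chromosome, in all 8. Such agreement was therefore not limited to neighbours. Col4a3 and Col4a4, chains of specialised basement membranes such as that of the kidney filter, were called in none. Col4a5 was called lower in fetal organoids at day 30 than at day 3 (-0.32 ± 0.08) and in adult than in fetal organoids at day 3 (-0.33 ± 0.08), and Col4a6 was called in neither (-0.07 ± 0.08 and -0.10 ± 0.08). Both Col4a5 calls ended without fetal day 3 arrays 2 and 3 (-0.22, limma adjusted p = 0.13, and -0.23, adjusted p = 0.099), and the first also when both groups alone were fitted (adjusted p = 0.072). The difference between the neighbours was not tested. Col6a6, Col6a5 and Col6a4 lie in a row: in adult against P0 tissue Col6a5 and Col6a4 were called lower and Col6a6 was not (-0.05 ± 0.09), and over fetal culture only Col6a4 of the 3 was called. Col9a1 and Col19a1, both FACIT collagens, were called in the same single comparison, fetal organoids at day 3 against P0 tissue.

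Genes that build, anchor and break down collagen were followed in lists of textbook roles. In fetal organoids at day 30 against day 3, limma called lower 8 of 15 folding and modification genes. The same held for 7 of 11 processing and crosslinking genes, 3 of 6 receptors and 7 of 7 breakdown genes. Basement membrane partners were called lower for 7 of 13 and basal adhesion genes for 3 of 5. No gene of these lists was called higher, while 8.76% of all genes were called lower and 6.77% higher. Of the breakdown genes, Mmp8, Mmp13 and Ctsk had day 30 means below the negative control median, so their falls are only bounds. In the other lists, P3h2 and Lox had day 30 means below it too. Adamts3, Tll1 and Lama2 lay below it on both days, so no direction is read for them. Day 30 and day 3 arrays overlapped for Mmp8 and Mmp14. Serpinh1, the collagen chaperone HSP47, had 4.61, 4.63, 4.79 and 4.69 at day 30 and 6.02, 6.41, 6.10 and 5.70 at day 3 in fetal organoids. The groups were far apart, at -1.38 ± 0.13 (limma adjusted p = 1.3e-07). In adult organoids it had 4.72, 4.73, 4.85 and 4.70 at day 30 and 5.04, 4.58, 4.77 and 4.58 at day 3, and the difference of the changes was -1.38 ± 0.18 (limma adjusted p = 8.2e-05). The collagen-cleaving proteases Mmp2 (-2.23 ± 0.20) and Mmp9 (-2.08 ± 0.20) fell more than any collagen in fetal organoids over culture. In adult organoids limma called none of the genes of these lists over culture, against 0.0228% of all genes called lower and 0.0261% higher.

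Nid1, nidogen, which links laminin to type IV collagen, was lower in adult than in fetal organoids at both days. At day 3 it had 6.50, 5.12, 5.55 and 5.14 in adult organoids and 8.76, 9.35, 9.66 and 9.22 in fetal organoids, without overlap (-3.67 ± 0.25, limma adjusted p = 1e-09). At day 30 it had 5.34, 5.65, 5.38 and 5.54 in adult organoids and 6.65, 5.96, 6.76 and 7.25 in fetal organoids (-1.18 ± 0.25, limma adjusted p = 0.0041). At that day the laminin chain Lama5 had 6.40, 6.56, 5.84 and 6.57 in adult organoids and 7.37, 6.63, 8.73 and 6.97 in fetal organoids (-1.08 ± 0.27). Fetal replicate 3 stood high, and without it the difference was -0.65 (limma adjusted p = 0.024). The call ended without adult replicate 3 (-0.92, adjusted p = 0.055) or when both groups alone were fitted (adjusted p = 0.18). The laminin chain Lamc1 (-0.67 ± 0.21), the tetraspanin Cd151 (-0.46 ± 0.11) and the collagen lysyl hydroxylase Plod2 (-0.83 ± 0.26) were also called lower. Without fetal replicate 3 none of these 3 was called (Lamc1 -0.47, Cd151 -0.37 and Plod2 -0.88, limma adjusted p from 0.052 to 0.21), and none was when both groups alone were fitted (adjusted p from 0.083 to 0.21). In adult against P0 tissue, 9 of 13 basement membrane partners were called lower and 2 higher, against 12.2% and 15% of all genes. The laminin chain Lama3 (0.87 ± 0.11) was among the higher ones. Of 5 basal adhesion genes, Itga6 (0.80 ± 0.20), Itgb4 (0.61 ± 0.11) and Cd151 (0.46 ± 0.11) were higher, Dst (-0.43 ± 0.13) was lower and Plec (0.26 ± 0.10) was not called. Dst lost its call without adult tissue replicate 4 (-0.30, limma adjusted p = 0.089), without P0 replicate 1 or 3, or when both groups alone were fitted. Of 6 collagen receptors, 3 were called higher and 2 lower in fetal organoids at day 3 than in P0 tissue. The shares of all genes were 30.5% and 13.8%. In adult organoids at day 3, 1 receptor was higher and 3 lower than in adult tissue, against 21.9% and 13.5% of all genes. The collagen-binding integrin Itga2 was higher in both (1.85 ± 0.19 in fetal and 1.41 ± 0.19 in adult samples), and the collagen receptor kinase Ddr2 was lower in both (-1.22 ± 0.20 and -1.31 ± 0.20). Ddr1 was higher in fetal (0.44 ± 0.10) and lower in adult organoids (-0.47 ± 0.10), and so was the integrin Itga11 (0.19 ± 0.06 and -0.34 ± 0.06), whose fetal call ended after centring (0.11, limma adjusted p = 0.14). The integrin chain Itgb1 was lower in fetal organoids (-0.34 ± 0.12), a call that ended without fetal day 3 replicate 1 or 4 or P0 replicate 3 (-0.28 to -0.31), and Itga10 was called in neither.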

How the data were processed

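RNA from 24 mouse samples was hybridised to single-colour Affymetrix arrays. Total RNA was extracted with Trizol and labelled with biotin, per the labels' protocols. The authors deposited log2 values summarised by RMA in Affymetrix Expression Console, per the submitters' processing notes (versions not given in the sources used here). No further normalization was applied. The genome build behind the array design is not given in the sources used here.

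Of 72688 probe sets, 32750 had an annotated symbol: 31258 named 1 gene and 1492 several, while 39938 had none. After 2094 symbols were updated through RefSeq, the probe set with the highest mean was kept for 442 genes with several, which gave 30701 genes. A group-means model over all 24 arrays was fitted in limma 3.58.1 (R 4.3.3; 18 residual and 4.252 prior degrees of freedom), with Benjamini-Hochberg adjustment over 30701 genes and calls under 0.05. The fit was checked on simulated data. Tables and figures were made in Python 3.11.15 with pandas 2.3.3, numpy 2.4.6 and matplotlib 3.10.9. A group mean below the median of 5222 negative control probe sets was read as only a bound.

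Every array value was given for a panel of 13 collagens, except Col7a1, which was left out. The same was done for up to 6 genes per comparison that were called, changed at least 2-fold and did not overlap. The members, lists and tests were chosen with earlier results of these data known. Alternatives were centring, a second quantile normalization, a filter on dim genes (16966 kept, those over the median of the array on 4 or more arrays), the mean of all probe sets, a trended and robust prior, the compared groups alone, a replicate block and arrays left out. The same alternatives were run for the named genes of other lists, a choice made after seeing the data.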

Additional observations from a re-analysis of the deposited data

Results flagged for a closer look

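In the 96 groups of 4 arrays of the 16 collagens given in full, 7 had an array far from the other 3 by Dixon's criterion, which chance meets in about 1 in 20 groups. Replicate 1 of adult organoids at day 3 was high for Col1a2 (6.38) and Col3a1 (6.55), and replicate 3 of the same group was high for Col27a1 (6.16). Replicate 3 of adult organoids at day 30 was low for Col3a1 (5.71). Replicate 4 was high for Col4a1 in adult tissue (6.53) and for Col17a1 (5.39) and Col27a1 (6.51) in P0 tissue.

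The change between day 30 and day 3 differed between fetal and adult organoids for 9 collagens, by limma's test of the difference itself. The fetal change minus the adult change was -1.20 for Col1a1, -1.10 for Col12a1, -0.82 for Col6a1, -0.69 for Col18a1 and -0.65 for Col6a2. It was -0.62 for Col6a3, -0.58 for Col4a2, -0.52 for Col4a1 and -0.51 for Col5a1.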

How the results depend on the processing

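Of 114 called differences of collagens, none reversed under any alternative. Calls were lost for 6 after centring, 8 after a second quantile normalization, 2 with a trended and robust prior, 20 with the compared groups alone, 21 of 76 without fetal day 3 arrays 2 and 3, and 24 in at least 1 fit without 1 array. Counts that moved by over 1.5 times were these. For adult against P0 tissue, 2 higher calls became 1 with dim genes left out and 1 with the compared groups alone, and 1 to 5 without 1 array. For fetal organoids at day 3 against P0 tissue, 8 higher calls became 5 after centring, 3 after a second quantile normalization, 5 with the compared groups alone, and 3 to 13 without 1 array. Without fetal day 3 arrays 2 and 3, the 9 lower calls for the difference of culture changes became 4, and the 23 lower calls for adult against fetal organoids at day 3 became 15. The causes were not tested. Without 1 array the lower counts ran between 16 and 17 for adult against P0 tissue, 14 and 15 for fetal organoids against P0 tissue, 17 and 22 for adult organoids against adult tissue, 17 and 22 for fetal culture, 8 and 12 for the difference of culture changes, and 17 and 23 for adult against fetal organoids at day 3. Signals near the negative controls limit what could be seen for most collagens.

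Replicate numbers were not used to pair the arrays in the main fit. Deviations of arrays with the same number correlated between -0.3062 and 0.2958. Arrays with unlike numbers were not set beside them, so these values cannot decide whether the arrays were paired. With the number as a replicate block, the higher and lower calls were 2 and 16 for adult against P0 tissue, 6 and 15 for fetal organoids against P0 tissue, 0 and 19 for adult organoids against adult tissue, 0 and 20 for fetal culture, 0 and 9 for the difference of culture changes, and 0 and 21 for adult against fetal organoids at day 3. Both remaining comparisons had 0 calls under the block.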
